A study of Mus musculus with 13 samples.

Results

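The genes described here are 34 listed genes of glycolysis and of the hypoxia response, followed in UG26-1B6 stromal cells before, during and without co-culture with blood progenitors. Members were taken from the list by gene symbol: 30 of the 34 had a probe set that the array annotation ties to that symbol alone, and the probe set with the highest mean over all 13 arrays stood for the gene. Gpi1 and Eno1 had no such probe set named here, while Gapdh and Bnip3l lay only on probe sets with several symbols, so these 4 genes were not analysed. Car9, a carbonic anhydrase of hypoxic cells, stayed under the filter value of 2.38 on all 13 arrays (2.28 on 12 of them, 2.33 on the other) and was not tested. The other 29 members were among 12205 genes tested.

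Affymetrix mouse arrays measured RNA of UG26-1B6, a single stromal clone from the urogenital ridge of a midgestation mouse embryo. The 5 groups were day 0 cells collected with trypsin before co-culture (d0, n = 3), a control without LSK cells given fresh medium 24 h earlier (n = 2, called medium below), and stroma after 1 day (n = 3), 2 days (n = 3) or 3 days (n = 2) with LSK cells, bone marrow cells that are Lin- Sca-1+ c-Kit+. Stroma was irradiated with 30 Gy before LSK cells were added, and plates were kept at 33 °C in 5% CO2 in air, so no group was made hypoxic by the stated protocol. The sources used here do not say whether d0 and medium cells were irradiated or how LSK cells were removed before lysis. Titles name biological replicates but the design text technical ones, and p-values therefore cover just the spread among these arrays.

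Glycolysis turns glucose into pyruvate in the cytosol, and lactate dehydrogenase turns pyruvate into lactate when it is not burned in mitochondria. When oxygen is low, prolyl hydroxylases no longer mark the alpha subunits of hypoxia-inducible factor (HIF) for destruction, and HIF then binds short DNA motifs and raises transcription of glucose transporters, glycolytic enzymes, vessel growth factors and collagen-modifying enzymes. HIF activity is set largely through the stability of its protein, which these arrays do not measure. Stromal cells of blood-forming tissue support stem cells that are themselves known for a glycolytic metabolism.

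Promoters were examined for the core motif of HIF, ACGTG or GCGTG, because the list holds genes of the hypoxia response. A higher share of cores than among all genes was therefore likely in advance. Both strands were searched over the 250 bases before each start site in the RefSeq promoter table (GRCm38.p6), which held 27 of the 29 tested members and had no entry for Ndrg1 or Plod2. Either core was present in 32 of the members' 41 promoters (78.0%), in 44.0% of the 21263 promoters of protein-coding genes and in 38.6% of all 32851 promoters of the table. ACGTG was in 56.1% of the members' promoters, against 17.8% of protein-coding and 16.6% of all promoters. CACGTG, which contains ACGTG on both strands, was in 12.2%, against 6.63% and 6.02%. Of the 27 members, 25 had a core in at least 1 promoter, and Eno2 and Tpi1 had none in these windows. Aldoa, Hk1, Mxi1, Pkm and Vegfa had a core only at an inner start site and none before the outermost one. A share per gene was not computed for all genes. A match describes letters and not a bound site. The 6 promoters below are examples chosen by hand among members with differences around day 1, and each holds a core. Hk1 and Eno2 differed more than Slc2a1 between LSK day 1 and medium, and Mxi1 and Pkm did so between medium and d0. None of those genes had a core before the outermost start site. The 6 promoters are written 5′ to 3′ on the gene's strand and end at the base before the outermost listed start site. Cores are in capitals, and CACGT and CACGC are the cores read on the opposite strand.
Hk2 (chr6:82774455-82774704, minus strand): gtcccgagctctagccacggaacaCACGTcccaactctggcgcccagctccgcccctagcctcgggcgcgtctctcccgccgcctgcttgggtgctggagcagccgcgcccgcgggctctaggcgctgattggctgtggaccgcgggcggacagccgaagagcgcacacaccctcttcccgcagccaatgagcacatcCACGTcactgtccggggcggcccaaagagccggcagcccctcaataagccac
Ldha (chr7:46845554-46845803, plus strand): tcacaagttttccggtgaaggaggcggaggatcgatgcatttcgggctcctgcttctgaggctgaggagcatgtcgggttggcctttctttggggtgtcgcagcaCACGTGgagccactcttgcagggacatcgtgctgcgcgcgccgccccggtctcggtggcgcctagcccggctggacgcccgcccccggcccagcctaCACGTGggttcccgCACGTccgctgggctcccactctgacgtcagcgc
Slc16a3 (chr11:120948817-120949066, plus strand): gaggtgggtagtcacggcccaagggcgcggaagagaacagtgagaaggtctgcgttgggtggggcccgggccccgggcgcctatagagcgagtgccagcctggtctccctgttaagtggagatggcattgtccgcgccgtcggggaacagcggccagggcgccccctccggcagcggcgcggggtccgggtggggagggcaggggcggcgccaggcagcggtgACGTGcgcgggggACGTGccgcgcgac
Slc2a1 (chr4:119108495-119108744, plus strand): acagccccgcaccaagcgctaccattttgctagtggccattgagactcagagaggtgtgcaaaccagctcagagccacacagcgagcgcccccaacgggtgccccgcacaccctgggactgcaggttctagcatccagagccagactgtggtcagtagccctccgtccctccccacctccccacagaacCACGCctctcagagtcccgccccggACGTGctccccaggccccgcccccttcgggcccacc
Bnip3 (chr7:138909507-138909756, minus strand): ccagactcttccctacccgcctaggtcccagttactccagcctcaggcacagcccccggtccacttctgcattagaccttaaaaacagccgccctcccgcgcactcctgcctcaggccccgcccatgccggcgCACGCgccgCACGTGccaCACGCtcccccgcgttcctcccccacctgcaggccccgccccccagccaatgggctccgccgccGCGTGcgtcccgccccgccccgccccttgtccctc
Hif1a (chr12:73907617-73907866, plus strand): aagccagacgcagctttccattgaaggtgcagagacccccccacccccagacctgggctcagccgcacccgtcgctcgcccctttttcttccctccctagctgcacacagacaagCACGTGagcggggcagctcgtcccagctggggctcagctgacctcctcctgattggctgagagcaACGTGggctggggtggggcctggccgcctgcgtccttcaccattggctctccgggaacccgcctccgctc
The Ldha promoter held 5 cores, counting each CACGTG once on each strand, and the Bnip3 promoter also held 5. Hif1a had 3, and Hk2, Slc16a3 and Slc2a1 had 2 each.

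**Figure D1:**
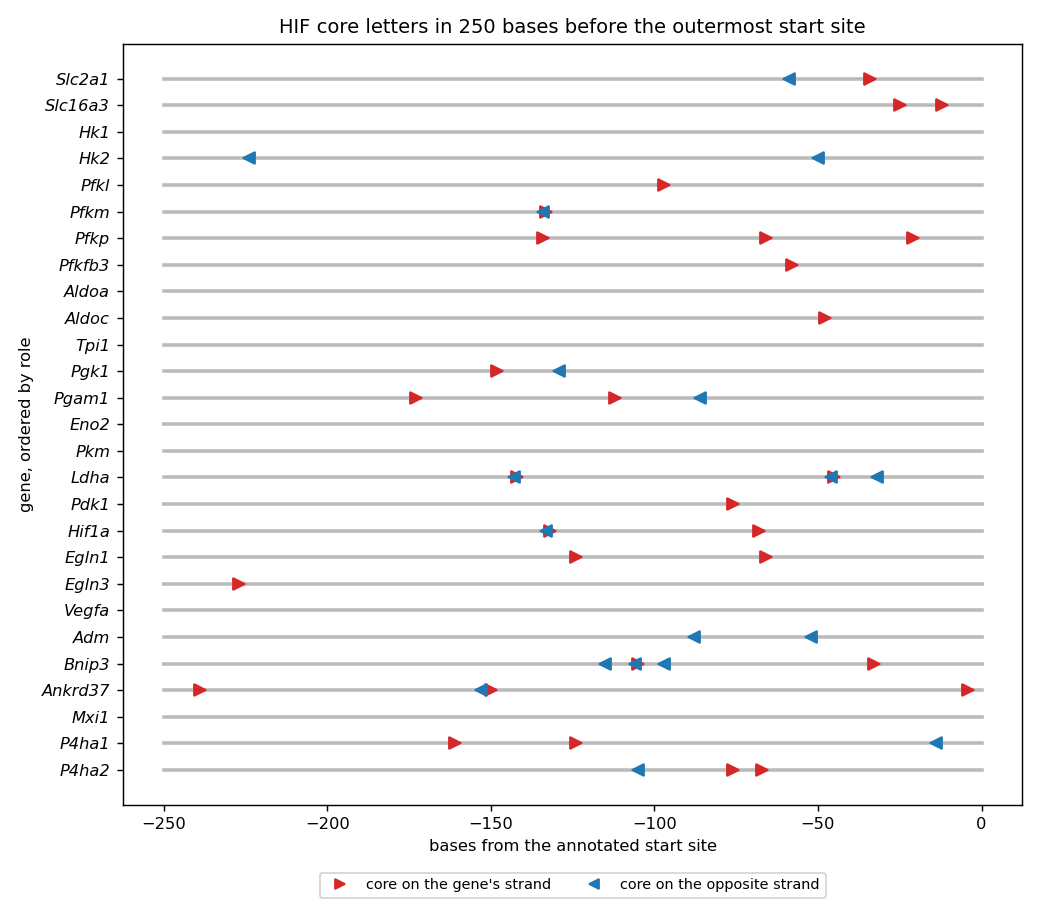
Positions of ACGTG and GCGTG cores in the 250 bases before the outermost start site of tested members, with distance from the start site in bases on the x axis and 1 line per gene. Cores lie at many distances, and several members carry more than 1. Aldoa, Eno2, Hk1, Mxi1, Pkm, Tpi1 and Vegfa carry none there.

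All values below are deposited log2 values, so a difference of 1 is a 2-fold difference, and levels were not compared between genes, since probe sets differ in sensitivity. Changes are differences of group means ± standard error from limma, with Benjamini-Hochberg adjustment over all 12205 genes and a threshold of 0.05. No member passed that threshold in any of the 7 comparisons. LSK day 1 was compared with the medium control of the same age to ask what co-culture adds to a day of fresh medium, and 5.2% of all genes passed there. For the medium control against d0 the share of all genes was 0.328%, and for LSK days 1, 2 and 3 against d0 it was 2.15%, 2.26% and 0.819%. Day 2 against day 1 and day 3 against day 1 each gave 0.00819%, which is 1 gene. The smallest adjusted p of a member in these comparisons was 0.0543, 0.0983, 0.129, 0.09, 0.232, 0.378 and 1, in that order.

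Unadjusted p-values under 0.05 were held by 7 members in LSK day 1 against medium (24.1%, against 20.9% of all genes) and by 6 in medium against d0 (20.7%, against 9.45%). The counts for LSK days 1, 2 and 3 against d0 were 3, 10 and 2 members, where 17.3%, 26.3% and 13.8% of all genes did so. Day 2 against day 1 had 6 such members (12.6% of all genes) and day 3 against day 1 had 0 (2.93%).

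**Figure D2:**
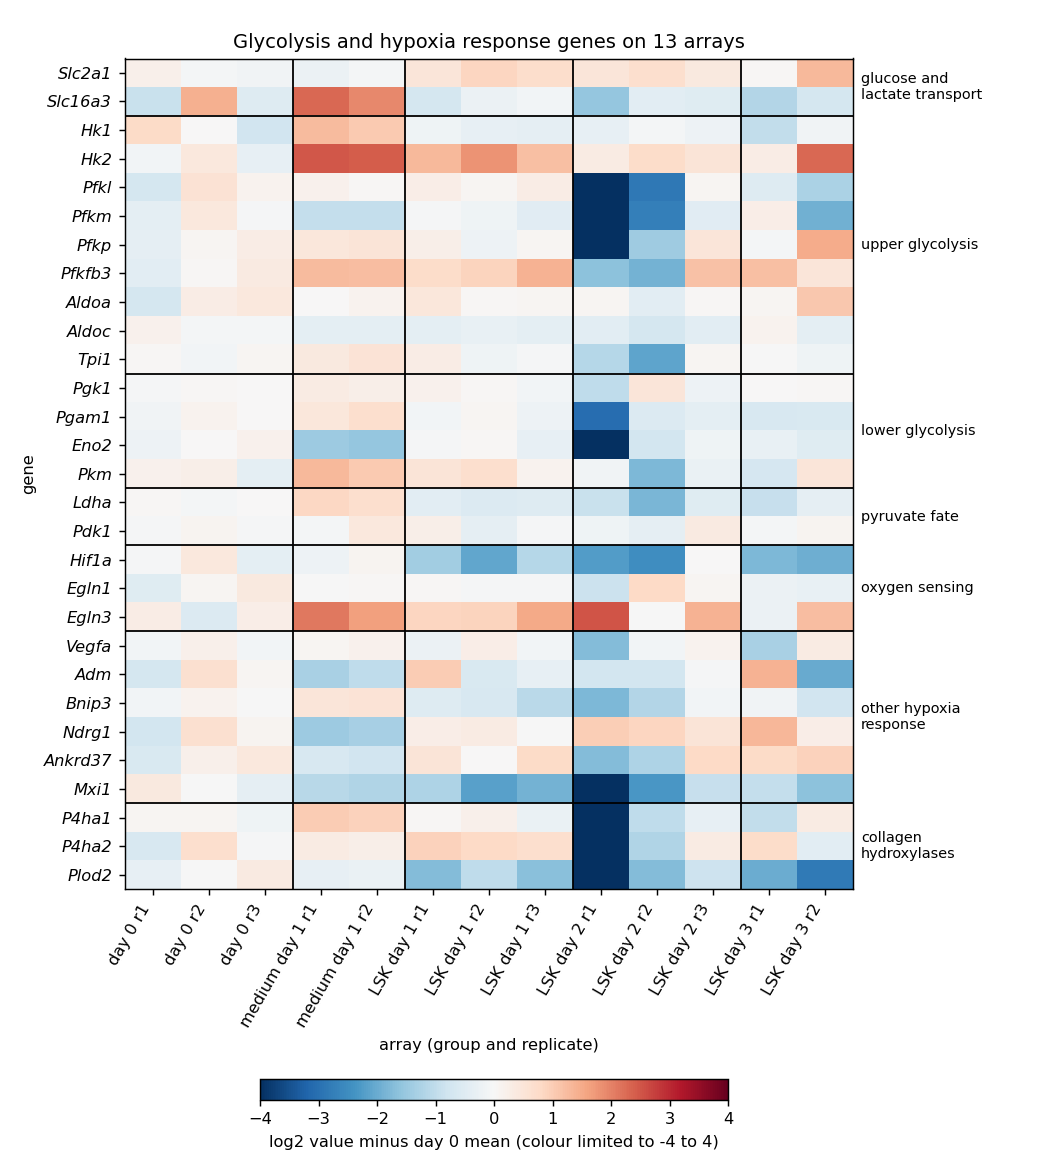
Log2 value minus the d0 mean for the 29 tested members (y axis, grouped by role) on each of the 13 arrays (x axis), with colour limited to -4 to 4. The darkest blue cells lie on LSK day 2 replicate 1, and the medium control columns stand apart from the LSK day 1 columns for several members.

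One array stood apart from the rest and bears on every day 2 value. On LSK day 2 replicate 1 the Gapdh control probe sets differed by 8.96 between the 3′ and 5′ ends. That difference was 5.79 on LSK day 3 replicate 2 and 2.15 to 3.82 on the other arrays. Across the tested genes, day 2 replicate 1 correlated with another array at 0.785 at most. It was the lowest array for 15 of 29 members (51.7%) and for 35.7% of all genes. Of the 29 members, 17 lay more than 2-fold below their d0 mean on day 2 replicate 1, 14 on replicate 2 and 0 on replicate 3, where the shares of all genes were 40.4%, 30.1% and 7.34%. Some blood cell markers lay above d0 on every LSK array. Of 19 such markers, 16, 8 and 10 lay more than 2-fold above their d0 mean on the day 2 arrays, 11 and 14 on day 3, and 4, 9 and 6 on LSK day 1, against 0 to 1 on arrays without LSK cells. Ptprc, the pan-leukocyte CD45, lay at 2.28 on the d0 and medium arrays, with a highest value of 10.93 on day 2 replicate 1, while Kit stayed under the filter on all 13. Of 10 stroma markers, 6, 7 and 4 lay more than 2-fold below their d0 mean on the day 2 arrays, 4 and 5 on day 3, 2, 4 and 4 on LSK day 1, and 3 and 2 in medium. Col1a2 and Col3a1 measured 3.71 and 4.09 on day 2 replicate 1. On the same array Vim measured 13.22, above all d0 arrays, and Acta2 measured 11.37, within the d0 range. Col1a1, Vim and Pdgfrb were above the filter on all 13 arrays, but Lum was under it on all 13 and Thy1 on 12. Means of the poly-A spike controls were 3.31 to 6.01 on arrays without LSK cells and 6.78 to 12.82 on LSK arrays. The medium arrays had the lowest of all, at 3.31 and 3.46. They also had the highest 3′ control values, at 14.19 and 14.01 for Gapdh (at most 13.63 elsewhere). For beta-actin these were 14.13 and 14.01 (at most 13.57 elsewhere), and both 5′ controls were highest in medium as well. The part of these differences in the members' values was not tested, and in a bulk sample fewer stromal cells and less RNA per cell cannot be told apart.

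Groups failed to overlap most often in the contrasts with the medium control, for members and for all genes alike. The medium group has only 2 arrays, and their correlation of 0.996 was the highest between any arrays. Such groups separate more easily than groups of 3 arrays, so these counts are not comparable between contrasts. Groups did not overlap for 22 of 29 members between LSK day 1 and medium (75.9%, against 62.5% of all genes): 15 were lower with LSK cells (31.8% of all genes were) and 7 were higher (30.7%). Between medium and d0, 20 members did not overlap (69%, against 43.3%), of which 13 were higher in medium (20.6% of all genes) and 7 lower (22.7%). The median member difference was -0.25 for LSK day 1 minus medium and 0.17 for medium minus d0, where the medians of all genes were 0.00 and 0. Leaving out medium replicate 1 moved the first to -0.47, and leaving out d0 replicate 1 or 2 moved the second to 0.07 or 0.32. The 17 glycolysis members had medians of -0.25 and 0.47 in these contrasts, and the 12 hypoxia response members -0.37 and -0.02. Both contrasts use the same medium arrays, so a high medium value lowers the first and raises the second.

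**Figure D3:**
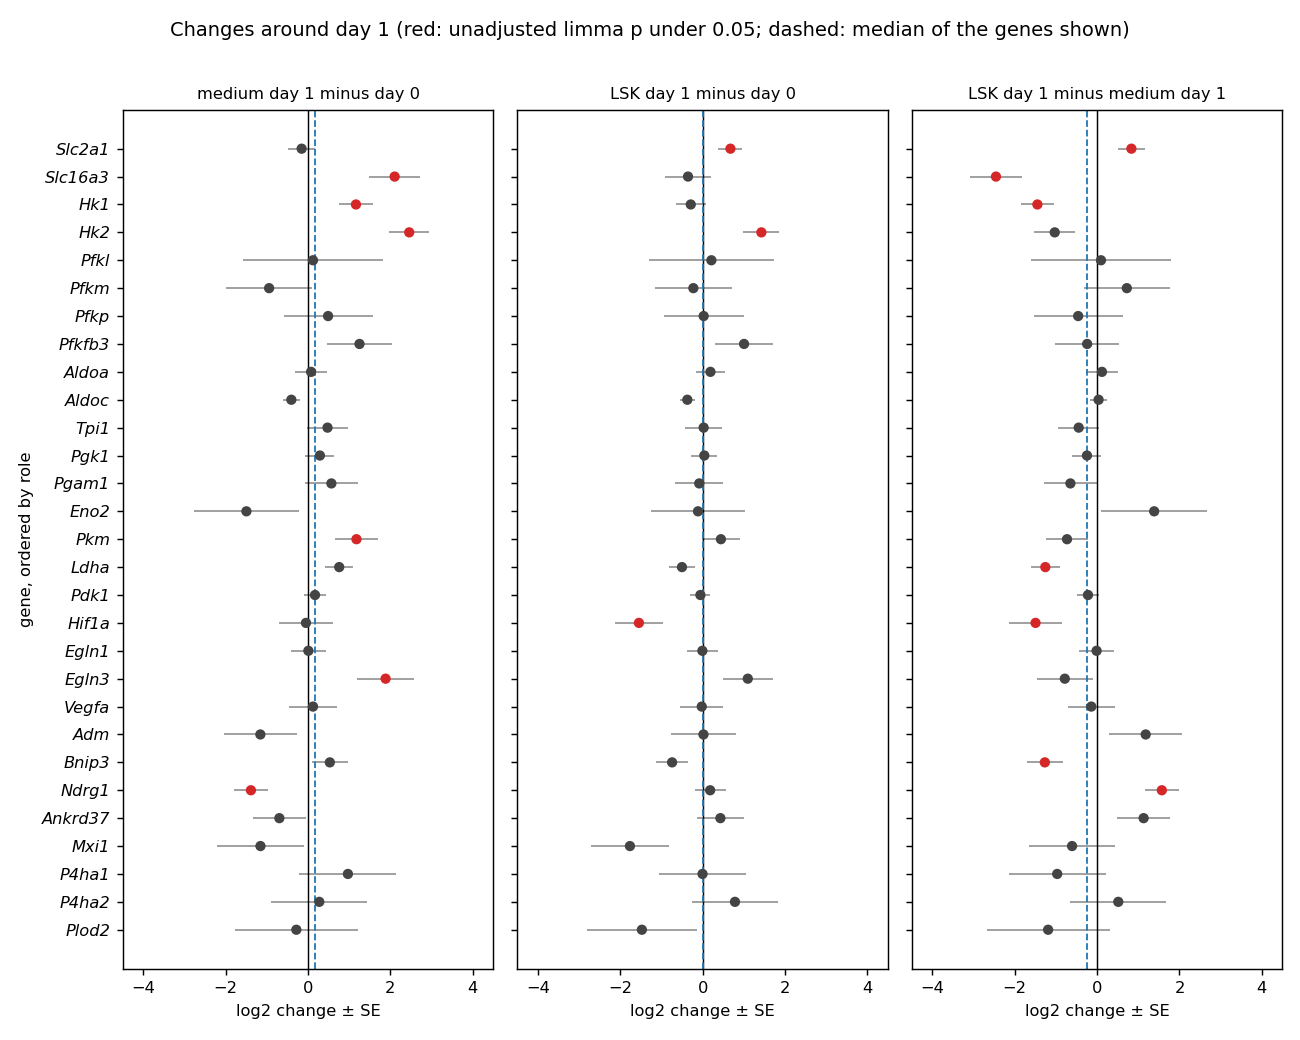
Log2 difference ± standard error (x axis) of each tested member (y axis) for medium minus d0, LSK day 1 minus d0 and LSK day 1 minus medium, in 3 panels, with red points for an unadjusted limma p under 0.05 and a dashed line at the members' median. Slc16a3, Hk1, Ldha and Bnip3 lie above 0 in the first panel and below 0 in the last, while Ndrg1 does the reverse, and no member passed the adjusted threshold.

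The transporters at both ends of the pathway differed in opposite directions. Slc16a3 (MCT4, the lactate exporter, 11:120948484-120959000 in GRCm38.p6) measured 3.45, 5.76 and 3.84 at d0, 6.64 and 6.27 in medium, 3.65, 4.12 and 4.23 at LSK day 1, 2.80, 3.92 and 3.86 at day 2, and 3.19 and 3.65 at day 3. Both medium arrays lay above all 11 others, and d0 replicate 2 was the nearest. The remaining values were low, at 2.80 to 4.23, where the lowest value of the data is 2.28. The value 3.64549 was identical on LSK day 1 replicate 1 and day 3 replicate 2. The difference of LSK day 1 from medium was -2.46 ± 0.63, with the smallest adjusted p of all members there (limma, 0.0543), and that of medium from d0 was 2.10 ± 0.63 (limma adjusted p 0.26). Slc2a1 (GLUT1, the basal glucose importer, 4:119108745-119137330) measured 11.20, 10.91 and 10.85 at d0 and 10.76 and 10.90 in medium. It measured 11.46, 11.85 and 11.68 at LSK day 1, 11.45, 11.66 and 11.36 at day 2, and 11.03 and 12.28 at day 3. All LSK arrays of days 1 and 2 were above all 5 arrays without LSK cells, and 1 day 3 array lay among the latter. LSK day 1 minus medium was 0.83 ± 0.33 (limma adjusted p 0.181), and LSK day 1 minus d0 was 0.68 ± 0.29 (0.275). Its other probe sets gave 0.55 and -0.58 for LSK day 1 minus medium, so they disagreed in sign.

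Hexokinase traps glucose in the cell as its phosphate. Hk2 (6:82725025-82774454), the inducible form, measured 6.51, 7.02 and 6.29 at d0 and 9.11 and 9.02 in medium. With LSK cells it measured 7.91, 8.39 and 7.80 at day 1, 6.94, 7.34 and 7.12 at day 2, and 6.92 and 8.90 at day 3. Day 1 values lay between d0 and medium without overlap, and day 2 values overlapped those of d0. Medium minus d0 was 2.46 ± 0.49, the smallest adjusted p of a member in that comparison (limma, 0.0983). LSK day 1 minus d0 was 1.43 ± 0.44 (0.129). Hk1, the housekeeping form and named after its values were seen, measured 8.86 and 8.64 in medium and 7.42, 7.26 and 7.21 at LSK day 1. Those groups did not overlap, and the difference was -1.45 ± 0.40 (limma adjusted p 0.0705).

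Phosphofructokinase makes the committed step of glycolysis, and its liver-type subunit Pfkl showed the widest spread of group means. Pfkl (10:77986947-78009807) measured 10.73, 12.01 and 11.59 at d0, 11.63 and 11.50 in medium, and 11.71, 11.52 and 11.74 at LSK day 1. Day 2 arrays held 3.63, 8.59 and 11.51, and day 3 arrays 10.94 and 10.18. The low day 2 mean of 7.91 ± 3.98 (SD, n = 3) rests on replicates 1 and 2, while replicate 3 lay inside the d0 range. The day 2 minus d0 difference was -3.53 ± 1.53 (limma adjusted p 0.181), and the other 2 probe sets of the gene gave -2.93 and 0.77. Pfkm and Pfkp, the muscle and platelet subunits, had the same order on day 2, with 2.75, 4.79 and 7.06 for Pfkm and 3.52, 6.39 and 8.30 for Pfkp. Pfkfb3, whose product activates phosphofructokinase, measured 4.20, 3.94 and 7.03 on these arrays. Replicate 3 of day 2 was the highest of its group for all 4 genes.

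Around day 1, Pfkfb3 measured 5.43, 5.89 and 6.21 at d0, 7.13 and 7.07 in medium, and 6.58, 6.75 and 7.23 at LSK day 1. Neither day 1 group overlapped d0, with differences of 1.25 ± 0.78 for medium and 1.01 ± 0.70 for LSK day 1. Aldoa, Aldoc and Tpi1, the aldolases and triose phosphate isomerase, gave LSK day 1 minus medium differences of 0.12, 0.04 and -0.45. Of the 9 upper glycolysis genes tested, 7 had a higher mean in medium than at d0, 5 of them without overlap (20.6% of all genes), and 2 a lower one, both without overlap (22.7%).

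Lower glycolysis yields ATP and pyruvate. Pkm, pyruvate kinase, measured 10.87, 10.94 and 10.32 at d0, 12.02 and 11.75 in medium, and 11.21, 11.39 and 10.86 at LSK day 1. Medium lay above every other array, at 1.18 ± 0.51 over d0 (limma adjusted p 0.514). Day 2 values were 10.56, 8.90 and 10.43, and day 3 values 10.04 and 11.18. Pgam1, phosphoglycerate mutase, measured 12.01 and 12.24 in medium and 11.35 to 11.69 at d0 and LSK day 1. On day 2 it measured 8.50, 11.02 and 11.16, all below d0. Eno2, the neuronal enolase, went the other way: 9.50, 9.73 and 9.89 at d0, 8.26 and 8.16 in medium, and 9.65, 9.77 and 9.37 at LSK day 1. On day 2 it measured 4.04, 8.97 and 9.52, the first on replicate 1, and the SE of 1.28 for its LSK day 1 minus medium difference of 1.39 includes that array. Pgk1, phosphoglycerate kinase, lay between 13.39 and 14.06 on 12 arrays and at 12.56 on day 2 replicate 1.

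At the end of the pathway, Ldha (lactate dehydrogenase A, 7:46842274-46855627) measured 12.52, 12.40 and 12.47 at d0 and 13.29 and 13.15 in medium. With LSK cells it measured 12.04, 11.91 and 11.94 at day 1, 11.56, 10.65 and 11.99 at day 2, and 11.53 and 12.09 at day 3. All 8 LSK arrays lay below all 3 d0 arrays, and both medium arrays lay above them. LSK day 1 minus medium was -1.26 ± 0.35 (limma adjusted p 0.0688), and LSK day 2 minus d0 was -1.06 ± 0.31, the smallest adjusted p of a member in that comparison (limma, 0.09). Pdk1 (2:71873215-71903858), the kinase that switches off pyruvate dehydrogenase, lay between 11.14 and 11.93 on all 13 arrays. Its d0 values were 11.45, 11.63 and 11.45, its medium values 11.43 and 11.93, and its LSK values 11.75, 11.16 and 11.46 at day 1, 11.33, 11.14 and 11.85 at day 2, and 11.45 and 11.63 at day 3. Every pair of groups overlapped for Pdk1, although other probe sets of it gave up to -2.84 for day 2 minus d0.

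Oxygen sensing genes did not share a direction. Hif1a, the oxygen-regulated HIF subunit (12:73901324-73947554), measured 12.53, 13.02 and 12.20 at d0, 12.38 and 12.69 in medium, and 11.18, 10.49 and 11.44 at LSK day 1. It measured 10.36, 10.10 and 12.59 at day 2 and 10.78 and 10.63 at day 3. Of the 8 LSK arrays, 7 lay below all 5 arrays without LSK cells, and day 2 replicate 3 lay among them. The differences from d0 were -1.55 ± 0.58, -1.57 ± 0.58 and -1.88 ± 0.65 at days 1, 2 and 3 (limma adjusted p 0.211, 0.142 and 0.232), and that from medium at day 1 was -1.50 ± 0.65 (0.23). The gene's other probe sets gave -0.88 and -0.27 for day 1 minus d0, in the same direction and smaller.

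Egln3 (PHD3, a HIF prolyl hydroxylase that HIF itself induces, 12:54178981-54203874) measured 6.51, 5.66 and 6.47 at d0, 8.33 and 7.87 in medium, 7.09, 7.11 and 7.73 at LSK day 1, 8.72, 6.21 and 7.61 at day 2, and 5.97 and 7.43 at day 3. Day 1 groups lay above d0 without overlap, with medium above LSK. Medium minus d0 was 1.88 ± 0.68 (limma adjusted p 0.386), and the second probe set gave 1.15. Egln1, the main HIF prolyl hydroxylase, had group means of 9.56 to 9.84, with single arrays between 8.98 and 10.63.

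Among other hypoxia response genes, Bnip3 (a mitophagy receptor, 7:138890836-138909506) was, like Ldha, highest in medium. It measured 11.96, 12.18 and 12.02 at d0, 12.55 and 12.61 in medium, 11.55, 11.41 and 10.97 at LSK day 1, 10.26, 10.87 and 11.95 at day 2, and 11.91 and 11.29 at day 3. Both medium arrays lay above all d0 arrays, and all 8 LSK arrays lay below them, though day 2 replicate 3 at 11.952 nearly met the lowest d0 array at 11.955. LSK day 1 minus medium was -1.27 ± 0.43 (limma adjusted p 0.123). Ndrg1, a stress-response gene, went the other way, with 9.57 and 9.68 in medium, below 10.27, 11.65 and 11.13 at d0 and 11.27, 11.33 and 11.00 at LSK day 1. Its LSK day 1 minus medium difference was 1.57 ± 0.42 (limma adjusted p 0.0613). Its probe sets disagreed on day 2, where day 2 minus d0 was 0.78 on the one used and 1.33, -1.03 and -0.99 on the others.

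Vegfa (vascular endothelial growth factor A, 17:46016993-46032377), the best known secreted HIF target, measured 4.96, 5.25 and 4.96 at d0, 5.12 and 5.23 in medium, 4.82, 5.33 and 4.96 at LSK day 1, 3.33, 4.96 and 5.20 at day 2, and 3.77 and 5.38 at day 3. All groups overlapped, and the low values were single arrays of days 2 and 3. The identical value 4.9593 stood on 4 arrays, from d0, LSK day 1 and day 2. LSK day 1 minus medium was -0.14 ± 0.58. Adm, the vasodilator adrenomedullin, spread from 9.07 to 12.48 on the 2 day 3 arrays alone. Ankrd37 measured 4.40 and 4.29 in medium, below all d0 arrays (4.43, 5.25 and 5.45) and all LSK day 1 and day 3 arrays (5.05 to 5.98). On day 2 it measured 3.31, 3.81 and 5.84, so 2 of those arrays lay lower still. Mxi1 (a repressor of MYC targets, 19:53310128-53373293) measured 9.11, 8.69 and 8.34 at d0, 7.60 and 7.53 in medium, 7.48, 6.54 and 6.84 at LSK day 1, 3.13, 6.38 and 7.78 at day 2, and 7.78 and 7.09 at day 3. All 10 later arrays lay below all d0 arrays on this probe set. Day 2 minus d0 was -2.95 ± 0.94 (limma adjusted p 0.108), whereas the gene's other probe set gave 0.08.

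The collagen hydroxylases modify procollagen in the endoplasmic reticulum and are of interest in stroma, which lays down matrix. Plod2 (a lysyl hydroxylase, 9:92539636-92608428) measured 10.81, 11.11 and 11.49 at d0, 10.83 and 10.88 in medium, 9.41, 10.11 and 9.47 at LSK day 1, 3.88, 9.41 and 10.30 at day 2, and 9.16 and 8.31 at day 3. All 8 LSK arrays lay below all 5 arrays without LSK cells. The differences from d0 were -1.47 ± 1.33, -3.28 ± 1.33 and -2.40 ± 1.49 at days 1, 2 and 3, and the large errors include the value of 3.88. P4ha1 (a prolyl hydroxylase subunit, 10:59323197-59373304) measured 9.94, 9.96 and 9.70 at d0, 10.88 and 10.79 in medium, 9.92, 10.07 and 9.61 at LSK day 1, 4.57, 8.85 and 9.55 at day 2, and 8.89 and 10.18 at day 3. Medium lay above every other array. LSK day 1 minus d0 was -0.00 ± 1.05, with 1 LSK day 1 array above and 1 below all d0 arrays. Day 2 minus d0 was -2.21 ± 1.05, but the other probe set gave 0.16. P4ha2, its relative, measured 11.26, 11.14 and 11.01 at LSK day 1, above medium (10.67 and 10.58), and 5.57, 9.15 and 10.67 on day 2.

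**Figure D4:**
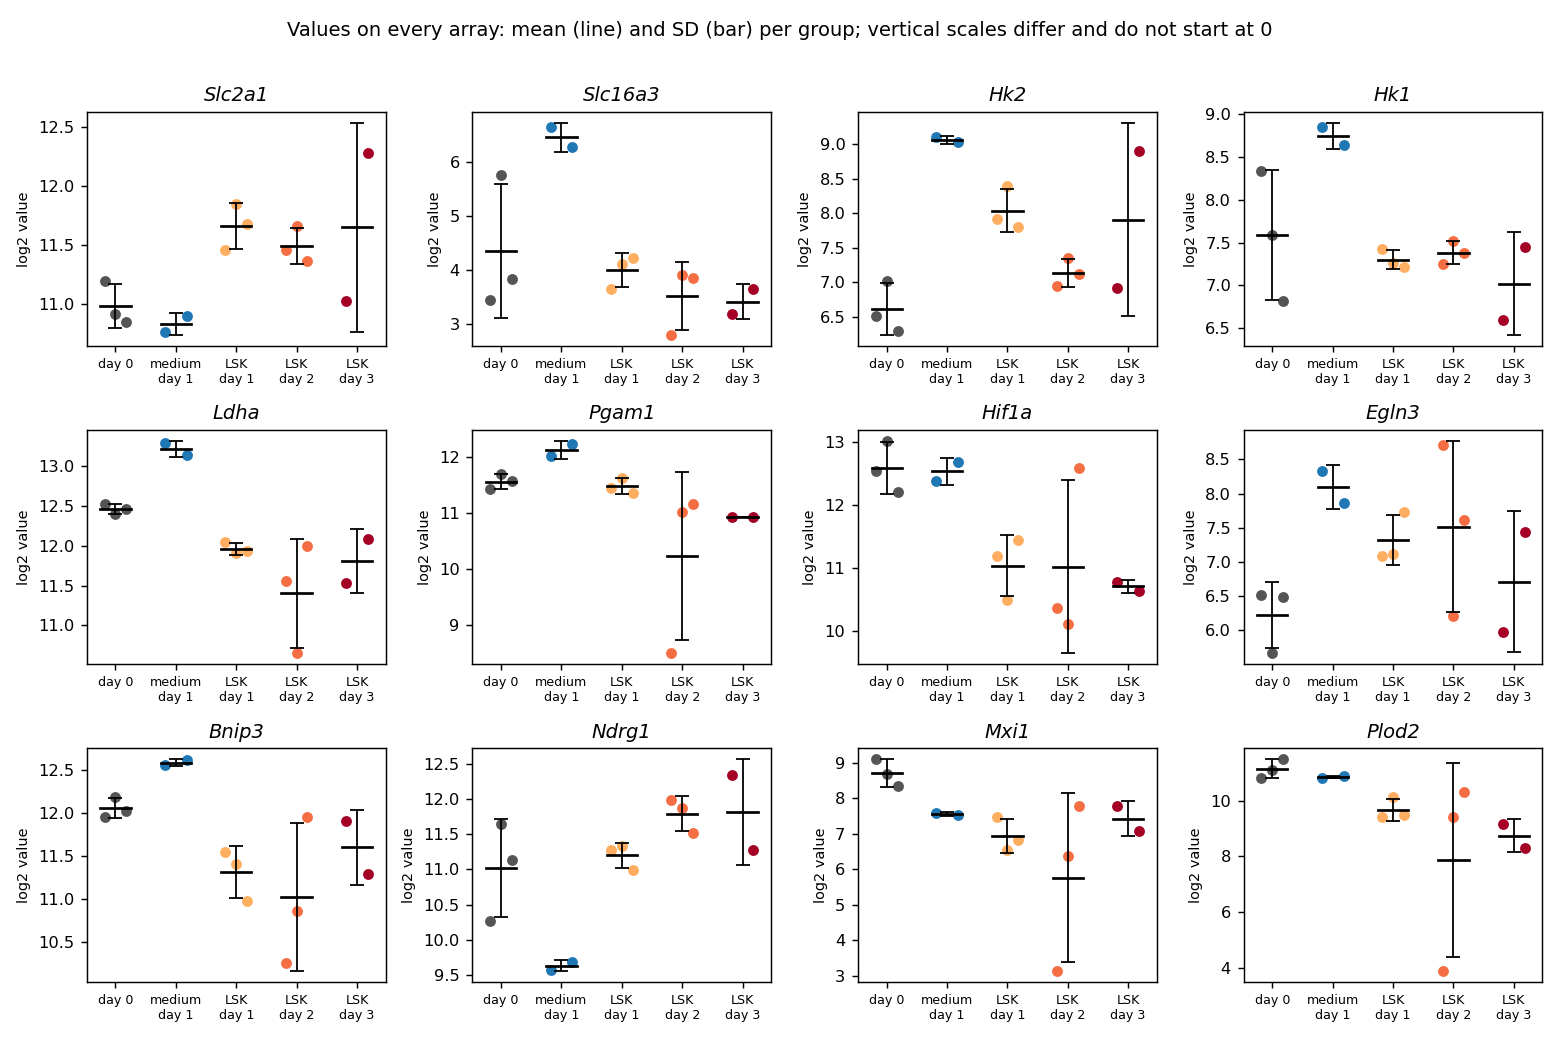
Log2 value (y axis, scaled per panel and not from 0) on every array for 12 members, by group on the x axis. Points are single arrays, lines group means and bars SD, and for Plod2 and Mxi1 1 of the 3 day 2 points lies far below the rest, at 3.88 and 3.13.

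Across days, most members had lower means on day 2. Of 29 members, 24 had a lower mean on day 2 than at d0 (82.8%, against 61.2% of all genes), with a median difference of -0.79 against -0.29 for all genes. Under quantile normalization of the arrays those medians were -0.63 and -0.03. They were -0.46 and -0.11 without day 2 replicate 1, and -1.36 and -0.42 without replicate 3. The groups did not overlap for 9 members (22.7% of all genes), 8 lower (16.2%) and 1, Slc2a1, higher (6.46%). All 10 unadjusted p-values under 0.05 belonged to lower members (34.5%, against 19.4% of all genes). Without day 2 replicate 3, the array of that group nearest to d0, 14 members passed the adjusted threshold and 28.7% of all genes did, so this count rests on which day 2 arrays enter. Without replicate 1 no member passed (limma, with 2.48% of all genes). On day 3 the median member difference from d0 was -0.27 (all genes 0; -0.14 without day 3 replicate 2), with 18 members lower (62.1%, against 53.1% of all genes) and 11 higher, and 9 did not overlap (35.6% of all genes). LSK day 1 and d0 had a median member difference of -0.00, with 10 members not overlapping (39% of all genes). Day 2 minus day 1 left 8 members without overlap (12.4%), and day 3 minus day 1 left 4 (19.8%).

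**Figure D5:**
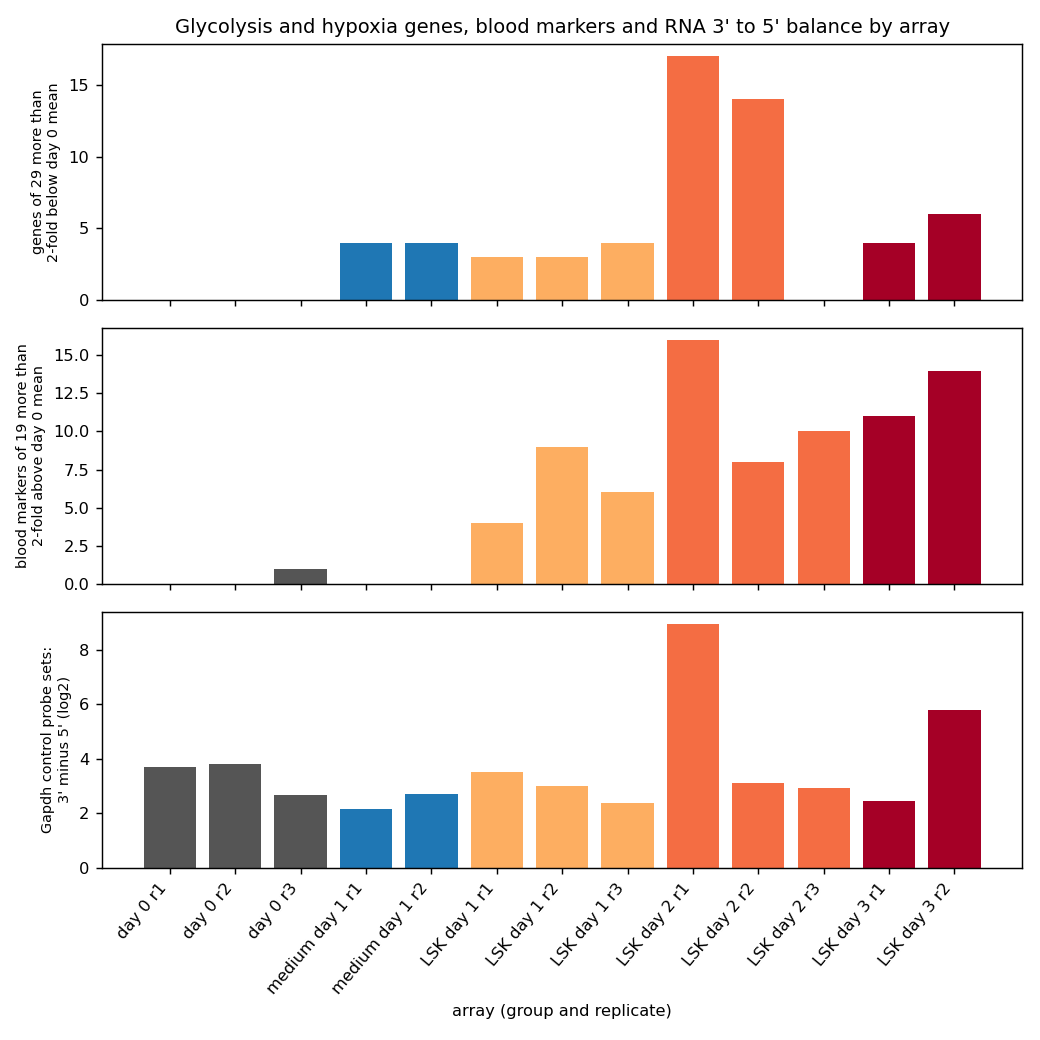
Members more than 2-fold below their d0 mean on each array, as bars from 0, with the blood cell markers more than 2-fold above their d0 mean and the Gapdh 3′ minus 5′ difference of the same array. Day 2 replicates 1 and 2 hold 17 and 14 such members and replicate 3 holds 0.

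Day 2 replicate 1 also entered the comparisons that do not contain it, because all groups share 1 estimate of each gene's spread. Without it, 7 members passed in LSK day 1 against medium (24.1%, against 17.2% of all genes). Slc16a3, Hk1, Pgam1, Ldha and Bnip3 were lower with LSK cells (limma adjusted p 0.027, 0.0434, 0.0228, 0.0401 and 0.034), and Eno2 and Ndrg1 were higher (0.00654 and 0.0373). The SE of the Eno2 difference of 1.39 was then 0.21. For medium against d0 only Eno2 passed, at -1.50 ± 0.21 (limma adjusted p 0.0162, with 1.36% of all genes). Mxi1 and Plod2 passed as lower in LSK day 1 against d0 (limma adjusted p 0.0313 and 0.0291, with 10.6% of all genes). Pgam1 and Plod2 passed as lower in day 3 against d0 (limma adjusted p 0.0399 and 0.0109, with 7.69%). Mxi1 and Plod2 each have 2 probe sets of a single symbol, and only the probe set used was fitted. Day 3 against day 1 and day 2 against day 1 still had no member past the threshold (0.221% and 0.00819% of all genes). Leaving out day 3 replicate 2 as well gave 11, 2, 4 and 2 members in LSK day 1 against medium, medium against d0, and days 1 and 3 against d0, beside 21.1%, 3.04%, 13.6% and 5.65% of all genes. It gave 0 members in day 2 against d0 (3.46%), day 2 against day 1 (0.0983%) and day 3 against day 1 (0.86%). Fitting only the 5 arrays of LSK day 1 and medium gave 15 members where 37.5% of all genes passed. The sizes of the day 1 differences are the same with and without that array, and the calls are not.

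Genes next to the members in the pathway, listed separately, included some that passed with all 13 arrays. Of 28 other HIF pathway and target genes tested, 1 was higher and 1 lower in LSK day 1 than in medium, where 2.15% and 3.05% of all 12205 genes were. Cited2, which competes with HIF for a shared coactivator, measured 13.27, 12.51 and 11.64 at d0, 12.73 and 12.78 in medium, 9.95, 8.60 and 9.62 at LSK day 1, 9.91, 9.20 and 10.58 at day 2, and 10.21 and 9.97 at day 3. All 8 LSK arrays lay below all 5 arrays without LSK cells. Cited2 fell by 3.37 ± 0.56 against medium and fell by 3.08 ± 0.50 against d0 at day 1, and fell by 2.58 ± 0.50 against d0 at day 2 (limma adjusted p 0.0157, 0.0215 and 0.0377). Of all genes, 1.33% fell in the day 1 comparison with d0 (0.828% rose) and 1.62% in that of day 2. Its day 3 minus d0 difference of -2.38 ± 0.56 did not pass (0.0955). The day 2 call was lost under 16 of 22 alternatives, among them leaving out day 2 replicate 1, that of day 1 against d0 under 7, and that against medium under 4, each of which left out 1 array of the groups compared (highest adjusted p 0.153). Hif3a, a HIF subunit with inhibitory splice forms, rose from 3.81 and 4.09 in medium to 6.06, 5.50 and 5.67 at LSK day 1, by 1.80 ± 0.34 (limma adjusted p 0.0251). That call was lost under 6 of 22 alternatives, among them leaving out any 1 of these 5 day 1 arrays (highest adjusted p 0.233). Its d0 values were 4.44, 5.07 and 5.24, and LSK day 1 minus d0 was 0.83 ± 0.31 (limma adjusted p 0.202). Hif3a measured 5.24, 6.26 and 5.54 at day 2 and 5.24 on both day 3 arrays. The value 5.23836 was identical on d0 replicate 3, day 2 replicate 1 and both day 3 arrays.

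Of 20 pyruvate dehydrogenase and citrate cycle genes, 2 fell in LSK day 1 against medium (3.05% of all genes did) and none rose (2.15%). Pdhb, a subunit of the enzyme that Pdk1 inhibits, measured 10.62, 10.23 and 10.87 at d0, 11.11 and 10.80 in medium, and 9.22, 9.68 and 9.39 at LSK day 1. At day 2 it measured 9.57, 9.55 and 9.74, and at day 3 9.55 and 9.43, so all 8 LSK arrays were below all 5 others. Pdhb fell by 1.52 ± 0.23 against medium and fell by 1.14 ± 0.21 against d0 at day 1 (limma adjusted p 0.0129 and 0.0327). The first call was lost under 4 of 22 alternatives, leaving out medium replicate 1 or 2 or LSK day 1 replicate 1 or 3 (highest adjusted p 0.154), and the second under 12. With the mean of its probe sets, the Pdhb differences were -0.73 and -0.51. Idh3a, isocitrate dehydrogenase, fell by 1.57 ± 0.38 against medium (limma adjusted p 0.046), a call that held under 7 of 22 alternatives. Idh3g, a regulatory subunit of the same enzyme that was named after its values were seen, was 2.05 ± 0.77 higher with LSK cells than in medium (limma adjusted p 0.158). Without day 2 replicate 1 it passed as higher in that comparison (17.2% of all genes passed) and against d0 on all 3 LSK days (10.6%, 2.48% and 7.69%). In LSK day 1 against medium that fit also called other genes of these lists. Of the 28 HIF pathway and target genes, 3 were higher and 4 lower. Of the 20 genes here, Idh3g was higher and 4 were lower, and 1 of the 6 pentose phosphate genes was higher. Of 6 pentose phosphate genes, Pgd, phosphogluconate dehydrogenase, rose by 1.00 ± 0.21 at day 2 against d0 (limma adjusted p 0.0478) where 0.639% of all genes rose, and kept that call under 5 of 22 alternatives. With the mean of its probe sets that difference was 0.58. Pgd measured 12.80, 12.52 and 12.61 at d0 and 13.79, 13.87 and 13.28 at day 2. None of 14 other glycolysis genes or of 4 mitophagy relatives passed in any comparison with all 13 arrays (limma, with 0 to 5 and 0 to 1 unadjusted p-values under 0.05 per comparison). Within the former, Hk3, a hexokinase of blood cells, lay at 2.28 on the d0 and medium arrays and measured 8.59 on day 2 replicate 1 and 8.21 on day 3 replicate 2, the arrays with the most blood cell markers above d0. Without day 2 replicate 1, Pfkfb4 and Pink1 passed as higher in LSK day 1 against medium (17.2% of all genes passed). Pink1 then passed as lower in medium against d0 (1.36%), and Hk3 as higher in day 3 against d0 (7.69%).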

How the data were processed

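Gene expression was measured on 13 Affymetrix mouse arrays in 5 groups, taken from sample titles. The deposited values are log2 values, 1 per probe set and array, and the submitters' processing notes name both RMA and GCRMA, with no version and no word on which was used for them. The values were used as deposited. Of 45101 probe sets, 64 controls were left out, and 34945 of the rest had 1 symbol, 932 several and 9160 none. Of 18193 symbols, 18145 were in the RefSeq table (GRCm38.p6). The filter kept probe sets whose value exceeded 2.38, the median of all values, on 2 or more arrays. limma 3.58.1 under R 4.3.3 fitted a mean per group over all 13 arrays (lmFit, contrasts, eBayes), with adjusted p over 12205 genes, and the fit was tested on simulated data. Python 3.11.15 and matplotlib 3.10.9 drew the figures.

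Members and lists were chosen with earlier results of these data known. Values on every array are given for members past the threshold, for Hif1a, Egln3, Vegfa, Slc2a1, Ldha, Pdk1 and Bnip3 (the rule also named Gapdh, which was not analysed), and for those with the widest range of group means up to 12; other members are examples of each role with the largest changes. The number of arrays limits the precision. Alternatives were no filter, a filter above 5, quantile normalization, the mean of a gene's probe sets, eBayes with trend and robust, array weights, only the groups compared, the replicate number as a block, and leaving out arrays.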

Additional observations from a re-analysis of the deposited data

Results flagged for a closer look

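For 10 pairs of changes among 174 examined, every array of one group lay on the opposite side of all d0 arrays from every array of the other. The same pattern between the medium control and LSK day 1 was present for 8.46% of all 12205 genes, and among members for Ldha and Bnip3 only. For the other pairs of groups the share of all genes was not computed, so those flags have no background beside them. Both changes of a pair share the d0 arrays.

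Ldha was 0.76 above d0 in medium and 0.50 below it at LSK day 1, a difference of -1.26, and the differences of days 2 and 3 from medium were -1.82 and -1.41. For Bnip3 the corresponding differences of LSK days 1, 2 and 3 from medium were -1.27, -1.56 and -0.98. The day 1 differences of Ldha and Bnip3 were tested and did not pass (limma adjusted p 0.0688 and 0.123). The differences of days 2 and 3 from medium were not tested.

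Pgam1 was 0.57 above d0 in medium and below it with LSK cells, by a difference of -1.89 on day 2 and -1.19 on day 3. P4ha1 differed by -3.18 between medium and day 2, with single day 2 arrays at 4.57, 8.85 and 9.55. Ankrd37 went the other way, at -0.70 in medium and 0.85 on day 3, a difference of 1.55. The differences of Pgam1, P4ha1 and Ankrd37 were not tested.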

How the results depend on the processing

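The count of members past the threshold was 0 in all 7 comparisons with all arrays, and it stayed at 0 in all 7 with no filter, with a filter above 5, with eBayes trend and robust, and with the replicate number as a block (0 members). Counts moved elsewhere, with members given before the share of all genes. For LSK day 1 against medium they were 1 under quantile normalization (Ndrg1; 5.67%), 1 with the mean of probe sets (Hk1; 5.56%), 20 with array weights (52.6%), 15 with only the groups compared (37.5%) and 11 without both day 2 replicate 1 and day 3 replicate 2 (21.1%). For medium against d0 they were 15 with array weights (29.4%) and 2 without both arrays (3.04%). LSK day 1 against d0 gave 10 with array weights (29.4%), 6 with only the groups compared (14.6%) and 4 without both arrays (13.6%). With array weights, day 2 against d0 gave 10 (20.8%) and day 2 against day 1 gave 7 (10.4%), and day 3 against d0 gave 2 without both arrays (5.65%). Leaving out 1 array at a time gave 0 to 7 for LSK day 1 against medium, 0 to 1 for medium against d0, 0 to 2 for day 1, 0 to 14 for day 2 and 0 to 2 for day 3 against d0, 0 to 7 for day 2 against day 1, and 0 to 0 for day 3 against day 1. In that order, the counts over all 12205 genes ranged from 7 to 2103, 8 to 166, 9 to 1290, 26 to 3497, 4 to 939, 0 to 1887 and 0 to 106. The counts of 14 and 7 on day 2 came without day 2 replicate 3. The cause of these differences was not tested. Of the 34 member changes with an unadjusted p under 0.05, none reversed in the 747 combinations of change and setting available under 22 alternatives. The changes were chosen by their p in these same data and the alternatives share most arrays, so a reversal was unlikely in advance. Same-numbered arrays did not deviate together (median correlation 0.005 over 23 pairs, -0.371 to 0.261), so the numbers were not taken as pairs.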

Other observations

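Epas1, the second oxygen-regulated HIF subunit, had no call in any comparison but a different order of arrays from Hif1a. It measured 3.70, 6.43 and 4.87 at d0, 4.66 and 4.48 in medium, 7.85, 8.02 and 6.70 at LSK day 1, 2.92, 9.55 and 7.03 at day 2, and 8.81 and 5.90 at day 3. Of the 8 LSK arrays, 6 lay above all 5 arrays without LSK cells. Epas1 was chosen after its values were seen.

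Slc2a3, the high-affinity glucose transporter of blood and nerve cells, lay at 2.28 on 11 arrays, at 2.42 on day 3 replicate 2 and at 7.85 on day 2 replicate 1. It was also chosen after its values were seen.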
